A study of Mus musculus with 6 samples.

Results

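Genes of the cell cycle were followed in the livers of mice with diet-induced steatohepatitis, with and without induced lipophagy, the autophagic degradation of lipid droplets. The 46 genes were chosen by symbol for their role in the cell cycle, with earlier results of these data known, and all 46 were found among the 24346 gene symbols of the deposited table. They comprise 11 cyclins and cyclin-dependent kinases (CDKs), 14 genes of DNA replication, 17 genes of mitosis and 4 transcription factors that drive proliferation. RNA of whole liver was sequenced in 3 control livers and 3 lipophagy livers. Male C57BL/6J mice (C57BL/6 in the labels) were 8 weeks old when they began CDAHFD, a high-fat diet without choline and with defined amino acids that induces nonalcoholic steatohepatitis (NASH), which they ate for 6 weeks. They then received a single intravenous dose of adeno-associated virus (AAV) of serotype 8, went back to normal chow and were analysed 2 weeks later. The lipophagy group received LDTS-eLIR, a signal that targets lipid droplets (LDTS) fused to an engineered LC3 interacting region (eLIR), and the control group received LDTS-LIR mut, the same signal with an inactive LIR. Both groups therefore carried virus and LDTS, which is itself mildly lipogenic. Both proteins were placed under the liver-specific thyroxine-binding globulin promoter, to be expressed in hepatocytes. No untreated or normally fed liver was part of the comparison.

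Most hepatocytes of the adult liver are quiescent and re-enter the cell cycle after injury or loss of tissue, while bile duct cells, stellate cells and immune cells can also divide in a diseased liver. D-type cyclins with Cdk4 respond to growth signals and lift the block that the retinoblastoma protein puts on E2F factors, which switch on genes for DNA synthesis. Genes of mitosis are switched on later, by the MuvB complex with Mybl2 and then Foxm1, through promoter elements known as CHR elements and CCAAT boxes. Myc is an immediate growth-responsive factor upstream of both programmes.

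The values were fragments per kilobase of transcript and per M (mega) mapped fragments (FPKM), so that levels can be compared between genes as well as between livers. Depth was estimated at 23.8 to 34.4 M fragments for the control libraries and at 23.2 to 25 M for the lipophagy libraries. Differences are lipophagy minus control on the log2(FPKM + 1) scale, which understates the change of genes at low FPKM. A gene was tested with limma if its mean over all livers reached 0.5 FPKM, which 11493 did. Their median difference was 0.020, and 3 of them (0.0261%) passed an adjusted p of 0.05. Before adjustment, at p under 0.05, 7.97% of tested genes were lower and 11.5% higher in lipophagy livers. The 3 control values lay all above the 3 lipophagy values in 10.8% of genes, and all below them in 15.4%. The p-values measure the spread between these 6 livers. In whole tissue, fewer cells of a type and less RNA per cell cannot be told apart.

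Of the 46 genes, 40 passed the filter on low values and 6 did not. The tested members had a median difference of -0.17, beside 0.020 for all tested genes, with 31 lower and 9 higher. None of the 40 passed an adjusted p of 0.05 (limma with Benjamini-Hochberg adjustment), and the lowest adjusted p was 0.071, of Myc. Before adjustment 5 members were lower at p under 0.05 (Myc, Prc1, Ccnd2, Plk1 and Ube2c), which is 12.5% of the tested members beside 7.97% of all tested genes. Rrm2 was the 1 member higher at that threshold, which is 2.5% beside 11.5%. All 3 lipophagy livers lay below all 3 control livers in 6 tested members (Ccnd2, Mcm4, Bub1b, Plk1, Prc1 and Myc), which is 15% beside 10.8% of all tested genes. The opposite separation was seen in 0 tested members, beside 15.4%.

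The groups of genes differed in where their values lay. All 15 tested mitosis genes were lower in lipophagy livers, with a median difference of -0.26, but Aurka lay next to 0 and was higher under quantile normalization. The 13 tested replication genes were split into 6 lower and 7 higher, with a median of 0.028. The 10 tested cyclins and CDKs had a median of -0.13, with 8 lower and 2 higher. These are descriptions of lists, whose difference from each other was not tested.

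**Figure D1:**
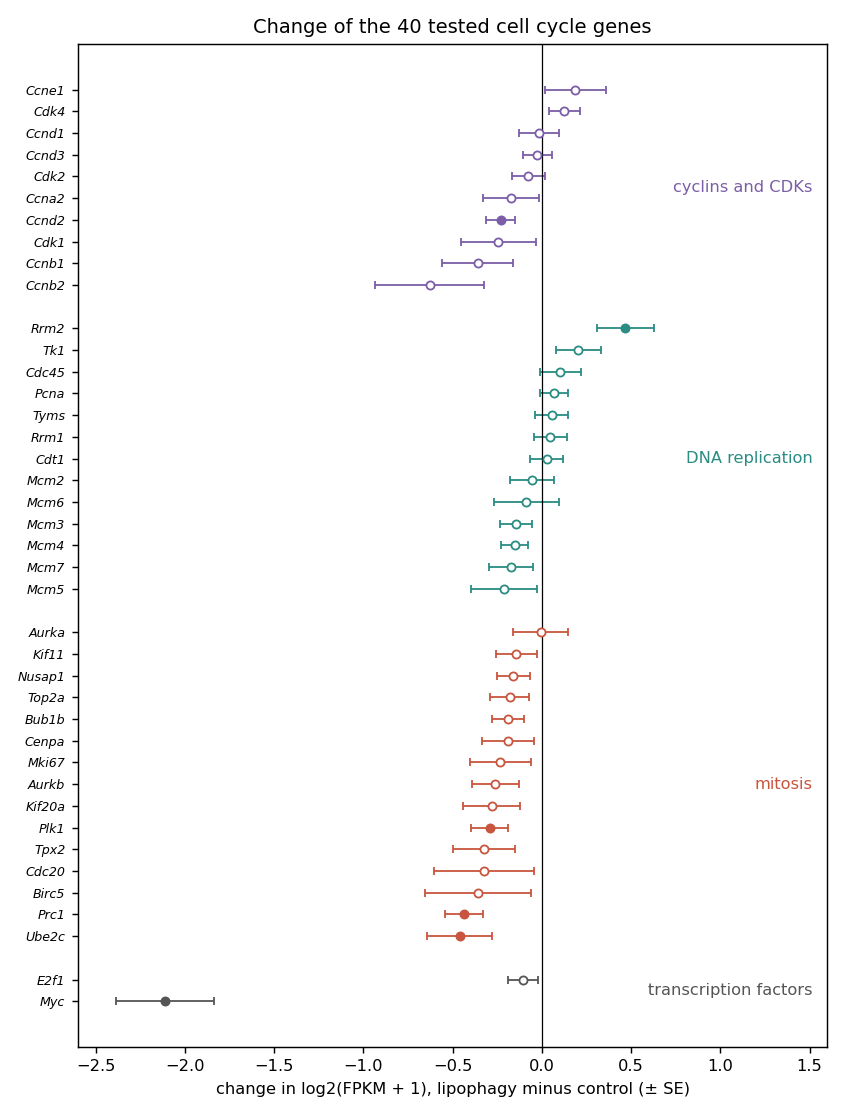
Difference between lipophagy and control livers in log2(FPKM + 1) for the 40 tested genes, as a point with its standard error, grouped by role (n = 3 livers per group). Filled points had an unadjusted p under 0.05 and open points did not; Myc lies at -2.11, the mitosis genes between -0.46 and -0.0070, and the replication genes on both sides of 0.

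Myc, a transcription factor for growth and metabolism, had by far the widest gap between the groups. The gene lies on the forward strand of chromosome 15 (chr15:61985391-61990374, GRCm38). Its level was 11.6, 6.14 and 15.1 FPKM in control livers 1, 2 and 3, and 1.63, 2.11 and 1.20 FPKM in lipophagy livers 1, 2 and 3. Every control liver was above every lipophagy liver, and control liver 2 was the lowest of its group. The means were 11 ± 4.52 FPKM and 1.65 ± 0.457 FPKM (SD, n = 3 each), a ratio of 0.15. The log2 difference was -2.11 (SE 0.27) with an adjusted p of 0.071 (limma with Benjamini-Hochberg adjustment), and it was -2.44 with an adjusted p of 0.00725 without control liver 2. Over all alternative fits the limma adjusted p of Myc ranged from 0.00725 to 0.207, and the difference from -2.6 to -1.86. An estimated 64.9 to 1124.5 fragments per liver lay behind these values, so counting error is small beside the spread between livers.

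The other 3 transcription factors were at low levels. E2f1, the activating E2F of replication genes, measured 1.93, 2.30 and 2.28 FPKM in control livers against 1.81, 2.02 and 2.0 FPKM in lipophagy livers, with overlapping groups and a difference of -0.11 (SE 0.08). Foxm1, the factor of late mitotic genes, was under the filter with a mean of 0.439 FPKM. It measured 0.474, 0.535 and 0.574 FPKM in control livers against 0.277, 0.524 and 0.247 FPKM in lipophagy livers. Lipophagy livers 1 and 3 were below all control livers, and lipophagy liver 2 lay within their range (two-sided exact permutation p = 0.2, where the smallest possible with 3 against 3 is 0.1). Mybl2 was near the limit of detection, at 0.0471 to 0.148 FPKM in control and 0.0677 to 0.122 FPKM in lipophagy livers, an estimated 3.9 to 17.7 fragments.

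Among the genes of mitosis, Prc1 had the smallest p. It encodes a protein that bundles the microtubules of the central spindle before the cell divides (chr7:80294450-80316259, GRCm38, forward strand). Its level was 1.21, 1.49 and 1.44 FPKM in control livers against 0.525, 0.902 and 0.858 FPKM in lipophagy livers. The groups did not overlap, and lipophagy liver 1 was the lowest. The difference was -0.44 (SE 0.11) with an adjusted p of 0.135 by limma, on an estimated 43.7 to 171.8 fragments. Prc1 shares 11.1% of its exon bases with Rccd1 on the opposite strand, which had a mean of 0.974 FPKM.

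Plk1, a kinase that governs entry into mitosis and spindle assembly (chr7:122159439-122169873, GRCm38, forward strand), was at 1.02, 1.27 and 1.13 FPKM in control livers. It was at 0.636, 1.0 and 0.629 FPKM in lipophagy livers. These groups did not overlap either, but lipophagy liver 2 came close to control liver 1, and the difference was -0.29 (SE 0.10, limma adjusted p = 0.204). Ube2c, the ubiquitin-conjugating enzyme of the anaphase-promoting complex (chr2:164769898-164778822, GRCm38, forward strand), measured 3.84, 6.22 and 5.47 FPKM against 2.77, 4.49 and 3.18 FPKM. Lipophagy liver 2 lay above control liver 1, so the groups overlapped, and the difference was -0.46 (SE 0.18, limma adjusted p = 0.229). Ube2c shares 22.8% of its annotated exon bases with Tnnc2 on the opposite strand, which was listed at 0 in all 6 livers.

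The spindle checkpoint kinases Bub1b and Bub1 were both lower in every lipophagy liver than in any control liver. Bub1b was at 0.727, 0.665 and 0.714 FPKM in control livers against 0.416, 0.665 and 0.410 FPKM in lipophagy livers. Control liver 2 and lipophagy liver 2 were nearly equal, and the difference was -0.19 (SE 0.09). Bub1, under the filter, measured 0.248, 0.359 and 0.376 FPKM against 0.140, 0.238 and 0.191 FPKM on an estimated 10.9 to 42.0 fragments. Its highest lipophagy value lay just under its lowest control value, with a two-sided exact permutation p of 0.1, the smallest this design allows.

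The proliferation marker Mki67, which coats mitotic chromosomes, was at 1.10, 1.63 and 1.65 FPKM in control livers against 0.695, 1.66 and 1.0 FPKM in lipophagy livers. Lipophagy liver 2 was the highest of all 6 and lipophagy livers 1 and 3 the lowest, and the difference was -0.23 (SE 0.17). Top2a, the topoisomerase that untangles chromosomes, was at 1.04, 1.40 and 1.08 FPKM against 0.798, 1.19 and 0.781 FPKM, with lipophagy liver 2 inside the control range and a difference of -0.18 (SE 0.11). Cdc20, the activator of the anaphase-promoting complex, was at 3.77, 5.58 and 6.01 FPKM against 2.90, 6.74 and 2.70 FPKM. Here too the highest value of all 6 livers was that of lipophagy liver 2 and the 2 lowest were those of lipophagy livers 1 and 3.

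The chromosomal passenger kinase Aurkb measured 1.14, 1.12 and 0.977 FPKM in control livers against 0.584, 1.14 and 0.537 FPKM in lipophagy livers, a difference of -0.26 (SE 0.13). Its partner Birc5, which is also an inhibitor of apoptosis, was at 3.98, 8.57 and 9.74 FPKM against 3.65, 6.68 and 5.81 FPKM, a difference of -0.36 (SE 0.30). Control liver 1 lay far below the other control livers in Birc5 and not in Aurkb. Aurka, the centrosomal kinase, did not follow the others. It was at 1.82, 3.09 and 2.36 FPKM against 1.91, 2.88 and 2.38 FPKM, and its difference was -0.0070 (SE 0.15). Its activator on the spindle, Tpx2, was at 0.829, 1.45 and 1.51 FPKM against 0.458, 1.20 and 0.793 FPKM, with overlapping groups and a difference of -0.32 (SE 0.17).

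The mitotic motors Kif20a and Kif11 were both low. Kif20a, the motor of the central spindle, was at 1.12, 1.52 and 1.79 FPKM against 0.780, 1.55 and 0.832 FPKM, but it shares 29.3% of its exon bases with Cdc23 on the opposite strand, which was at 3.0, 2.69 and 2.98 FPKM against 2.26, 2.46 and 2.28 FPKM. Kif11, which separates the spindle poles, was at 0.563, 0.652 and 0.761 FPKM against 0.277, 0.676 and 0.574 FPKM. In both genes lipophagy liver 2 lay inside the control range. Nusap1, which binds spindle microtubules, had a difference of -0.16 (SE 0.09), and Cenpa, the histone of the centromere, had one of -0.19 (SE 0.15), with overlapping groups in both. Cdc25c, the phosphatase that activates Cdk1, was under the filter at 0.271 to 0.706 FPKM in control and 0.141 to 0.732 FPKM in lipophagy livers.

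**Figure D2:**
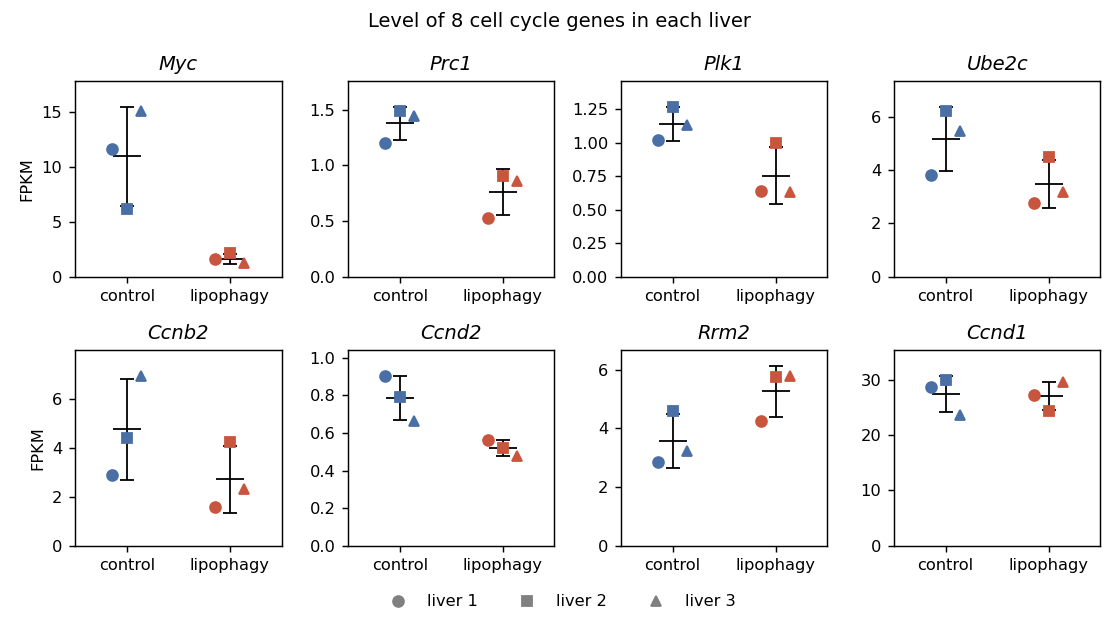
Level in FPKM of 8 members in each of the 6 livers, with the group mean and SD as black lines (n = 3). The marker shape gives the liver number, and numbers were not taken to pair livers across groups. The groups are apart in Myc, Prc1, Plk1 and Ccnd2, overlap in Ube2c, Ccnb2 and Rrm2, and coincide in Ccnd1.

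Promoters of the mitosis genes were inspected because these genes lay on one side of 0 together. RefSeq windows of 250 bases before to 50 bases after the transcription start (GRCm38.p6) were matched by symbol to 35 of the 46 members, in 38 windows, and the remaining 11 members (Aurkb, Foxm1, Cdc25c, Mcm4, Ccnd1, Tpx2, Ccne2, Ccna2, Myc, Ccnd2 and Kif20a) were not analysed here for motifs. The motifs searched, on both strands, were the CCAAT box (CCAAT), the CHR element (TTTGAA) and E2F sites (TTTGGCGC, TTTCGCGC, TTTCCCGC and TTTGGCGG). The letters of these motifs do not contain one another, but 2 E2F matches on opposite strands can overlap. A CHR element was found in 11 of the 14 mitosis windows, or 78.6%, against 12.1% of the 11247 windows of tested genes and 17.9% of all 32851 windows. A CCAAT box was found in 12 of the 14, or 85.7%, against 37.8% and 37.4%. Prc1 has a pair of overlapping windows with the same matches. Counted by gene, a CHR element was found in 10 of 13 mitosis genes (76.9%, beside 14.3% of 8819 tested genes with a window) and a CCAAT box in 11 of 13 (84.6%, beside 43%). No mitosis window held an E2F site, which 4.05% of the windows of tested genes did.

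Replication windows were also rich in CCAAT boxes, found in 10 of 14 (71.4%), but held CHR elements in 2 (14.3%), near the 12.1% of tested genes, and E2F sites in 6 (42.9%, beside 4.05%). Mcm7 has a pair of these windows. Counted by gene, a CCAAT box was found in 9 of 13 (69.2%, beside 43% of tested genes with a window). A CHR element was found in 2 (15.4%, beside 14.3%) and an E2F site in 6 (46.2%, beside 4.85%). Of the 8 windows of cyclins and CDKs, 5 held a CCAAT box (62.5%), 2 a CHR element (25%, Cdk1 and Ccnb2) and 2 an E2F site (25%, Cdk1 and Cdk2). Ccnd3 has a pair of these windows, and counted by gene the matches were in 5, 2 and 2 of 7 genes. Prc1, Plk1 and Ube2c each held both a CCAAT box and a CHR element, and so did Aurka, Mcm2 and Cdc45, whose differences were -0.0070, -0.056 and 0.10. Of the mitosis genes, Birc5 and Nusap1, at -0.36 and -0.16, matched none of the motifs, and Bub1 held no CHR element. The 1 matched replication gene with an unadjusted p under 0.05, Rrm2, held a CCAAT box alone. These matches describe the letters in the windows and are not evidence of binding, and a missing match says only that these letters were not in the window.

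**Figure D3:**
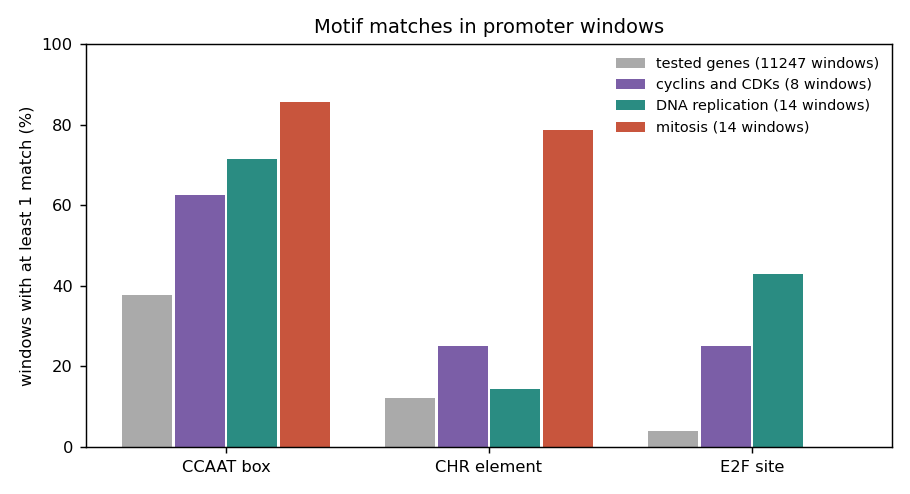
Share of promoter windows, in percent, with at least 1 match to a motif, for the tested genes (11247 windows) and for the cyclins and CDKs (8 windows), replication genes (14 windows) and mitosis genes (14 windows). CHR elements stand out in the mitosis windows at 78.6%, and E2F sites in the replication windows at 42.9%.

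To show how these motifs lie, the last 160 bases before the start are printed for 4 mitosis genes with both a CHR element and a CCAAT box before the start, and for 2 replication genes with E2F sites. Capitals mark every match to a CCAAT box, a CHR element or an E2F site. A CCAAT box on the opposite strand reads ATTGG here. A CHR element on that strand reads TTCAAA. The windows printed are, in GRCm38.p6, chr7:135716380-135716539 (reverse strand) for Mki67, chr11:99024190-99024349 (reverse) for Top2a, chr4:118437344-118437503 (reverse) for Cdc20, chr19:37376222-37376381 (forward) for Kif11, chr8:75109349-75109508 (forward) for Mcm5 and chr1:128359706-128359865 (reverse) for Mcm6.
Mki67: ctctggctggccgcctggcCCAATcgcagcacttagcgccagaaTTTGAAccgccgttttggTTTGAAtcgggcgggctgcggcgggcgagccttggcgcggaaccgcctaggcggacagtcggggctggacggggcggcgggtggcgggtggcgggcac
Top2a: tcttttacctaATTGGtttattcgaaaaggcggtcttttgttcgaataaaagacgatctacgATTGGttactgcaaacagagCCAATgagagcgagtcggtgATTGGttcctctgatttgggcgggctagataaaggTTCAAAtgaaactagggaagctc
Cdc20: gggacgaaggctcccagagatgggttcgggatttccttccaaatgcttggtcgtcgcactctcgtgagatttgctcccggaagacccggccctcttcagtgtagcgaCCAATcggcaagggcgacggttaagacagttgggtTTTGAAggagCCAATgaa
Kif11: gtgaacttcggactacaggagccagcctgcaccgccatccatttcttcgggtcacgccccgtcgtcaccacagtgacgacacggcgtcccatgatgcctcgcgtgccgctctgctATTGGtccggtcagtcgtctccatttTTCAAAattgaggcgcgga
Mcm5: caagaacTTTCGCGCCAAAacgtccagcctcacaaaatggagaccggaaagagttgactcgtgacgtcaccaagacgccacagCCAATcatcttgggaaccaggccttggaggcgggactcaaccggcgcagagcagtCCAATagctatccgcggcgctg
Mcm6: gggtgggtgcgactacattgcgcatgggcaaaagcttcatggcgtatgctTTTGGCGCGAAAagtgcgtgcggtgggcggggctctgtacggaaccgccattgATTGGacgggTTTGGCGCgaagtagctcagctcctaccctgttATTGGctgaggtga
Counted from -1 at the last base before the start, the CHR element of Cdc20 began at -18 and that of Kif11 at -19, with a CCAAT box upstream at -53 and -45. In Top2a the printed CHR element began at -23, downstream of the 4 printed CCAAT boxes. The whole Top2a window held 6 CCAAT boxes and a further CHR element at -179. Mcm5 and Mcm6 each held a pair of overlapping E2F sites on opposite strands, and Mcm6 held another nearer the start.

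The tested genes of DNA replication lay on both sides of 0. Rrm2, the regulated subunit of ribonucleotide reductase that makes deoxynucleotides (chr12:24708241-24714146, GRCm38, forward strand), had the largest positive difference of all members. It was at 2.85, 4.60 and 3.23 FPKM in control livers against 4.25, 5.74 and 5.80 FPKM in lipophagy livers. Lipophagy liver 1 lay below control liver 2, so the groups overlapped, and the difference was 0.47 (SE 0.16) with an adjusted p of 0.197 by limma. Its large subunit Rrm1 was at 2.79, 3.58 and 3.26 FPKM against 3.5, 3.36 and 3.16 FPKM, a difference of 0.046 (SE 0.09).

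Other enzymes of nucleotide supply, and the clamp protein Pcna, were level or slightly higher. Tk1, thymidine kinase, was at 12.8, 13.3 and 13.5 FPKM in control livers against 12.4, 16.6 and 17.7 FPKM in lipophagy livers, a difference of 0.20 (SE 0.13). Lipophagy livers 2 and 3 lay above all control livers and lipophagy liver 1 below them. Tyms, thymidylate synthase, was at 4.15 ± 0.481 against 4.33 ± 0.227 FPKM (SD, n = 3 each). Pcna, the sliding clamp of the polymerases and the most abundant member with a mean of 31.6 FPKM, was at 29.6, 31.5 and 31.3 FPKM against 30.8, 34.5 and 31.9 FPKM, a difference of 0.068 (SE 0.08).

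All 6 subunits of the MCM helicase, which unwinds DNA, were on the lower side, none with an unadjusted p under 0.05, and under quantile normalization Mcm2 was at 0.024 on the higher side. Mcm4 was at 1.21, 1.40 and 1.27 FPKM in control livers against 0.973, 1.08 and 1.13 FPKM in lipophagy livers. Its groups did not overlap, and the difference was -0.15 (SE 0.08). Mcm5 was at 1.30, 1.91 and 1.80 FPKM against 0.991, 2.10 and 0.945 FPKM, and Mcm6 at 3.96, 5.32 and 5.38 FPKM against 3.82, 6.37 and 3.69 FPKM. In both, lipophagy liver 2 was the highest of the 6 livers. The differences of Mcm2, Mcm3, Mcm5, Mcm6 and Mcm7 were -0.056, -0.15, -0.21, -0.087 and -0.17.

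The factors that load or activate the helicase showed no gap between the groups. Cdt1, which loads it, was at 1.96 ± 0.160 against 2.02 ± 0.268 FPKM, and Cdc45, which activates it, at 0.950 ± 0.179 against 1.10 ± 0.264 FPKM (SD, n = 3 each). Cdc6, the other loading factor, was under the filter at 0.0845 to 0.166 FPKM in control and 0.0822 to 0.133 FPKM in lipophagy livers.

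The cyclins and their kinases serve either mitosis or the entry into the cycle. Ccnb2, a B-type cyclin of mitosis, had the most negative difference of the group at -0.63 (SE 0.31). It was at 2.87, 4.41 and 6.93 FPKM in control livers against 1.59, 4.24 and 2.31 FPKM in lipophagy livers, with an unadjusted limma p of 0.0734. Lipophagy liver 2 lay inside the control range, and control liver 1 was the lowest control liver. Ccnb1, the main mitotic cyclin, had these 2 livers in the same places, at 1.59, 2.66 and 2.76 FPKM against 1.11, 2.36 and 1.38 FPKM, a difference of -0.36 (SE 0.20).

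Cdk1, the kinase that drives mitosis, was at 2.07, 3.71 and 3.32 FPKM against 1.73, 3.45 and 2.09 FPKM, a difference of -0.24 (SE 0.21). Ccna2, the cyclin of S phase and of early mitosis, was at 1.96, 3.07 and 2.99 FPKM against 1.95, 2.88 and 1.92 FPKM, a difference of -0.17 (SE 0.16). In these 4 genes lipophagy liver 2 lay above control liver 1 in every case.

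Cyclins of the entry into the cycle were mostly level. Ccnd1, the growth-responsive D-type cyclin, was at 28.7, 30.0 and 23.7 FPKM in control livers against 27.3, 24.4 and 29.6 FPKM in lipophagy livers, a difference of -0.016 (SE 0.11). Ccnd3 was at 11.2 ± 0.740 against 11 ± 0.578 FPKM (SD, n = 3 each). Ccnd2 was the exception among D-type cyclins (chr6:127125162-127152193, GRCm38, reverse strand), at 0.901, 0.793 and 0.663 FPKM against 0.563, 0.523 and 0.476 FPKM. Its groups did not overlap, lipophagy liver 2 included, and the difference was -0.23 (SE 0.08, limma adjusted p = 0.204).

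Cdk4, the partner of the D-type cyclins, was at 28.0, 27.6 and 32.9 FPKM against 32.4, 31.5 and 32.5 FPKM, a difference of 0.13 (SE 0.09). It shares 19.7% of its exon bases with Tspan31 on the opposite strand, which had a mean of 202 FPKM. Opposite-strand overlaps were also found for Ccnd1 with LTO1 (23.4% of exon bases), Ccne2 with Ints8 (17.4%, mean 4.79 FPKM) and Ccna2 with Exosc9 (12.5%, mean 10.3 FPKM), and how far the partner's reads enter these values was not tested. Cdk2, the kinase of S phase, had a difference of -0.076 (SE 0.09). Ccne1, a cyclin that starts DNA replication, was at 1.29, 1.40 and 1.17 FPKM against 1.12, 1.38 and 2.48 FPKM. Its difference of 0.19 (SE 0.17) was carried by lipophagy liver 3 and was -0.023 without it. Its relative Ccne2 was under the filter, at 0.116 to 0.233 FPKM in control and 0.151 to 0.317 FPKM in lipophagy livers.

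Members differed widely in level. The 5 most abundant members, Pcna, Cdk4, Ccnd1, Tk1 and Ccnd3, had mean levels of 31.6, 30.8, 27.3, 14.4 and 11.1 FPKM, and none of them had an unadjusted p under 0.05. The values of Pcna and Cdk4 over the 6 livers overlapped, so their order is not settled. Mitosis genes had mean levels from 0.259 FPKM (Bub1) to 6.40 FPKM (Birc5), with a median of 1.05 FPKM, against 2.75 FPKM for replication genes.

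The livers of 1 group were not alike in these genes. The mean deviation of the 15 tested mitosis genes from their average over the 6 livers was -0.072, 0.24 and 0.22 in control livers 1, 2 and 3. It was -0.32, 0.13 and -0.20 in the lipophagy livers. Lipophagy liver 2 was the highest lipophagy liver in all 15 of them, and control liver 1 was the lowest control liver in 13. Lipophagy livers 1 and 3 both lay below every control liver in 11 of the 15, while lipophagy liver 2 lay above control liver 1 in 11. Lipophagy liver 2 was the highest lipophagy liver in 8 of the 13 tested replication genes and in 4 of the 10 tested cyclins and CDKs. The replication genes had mean deviations of -0.12, 0.054 and 0.051 in the control livers against -0.11, 0.15 and -0.025. For cyclins and CDKs the mean deviations were -0.069, 0.15 and 0.14 against -0.22, 0.060 and -0.058. In each of the 3 groups of genes the control and lipophagy livers overlapped.

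**Figure D4:**
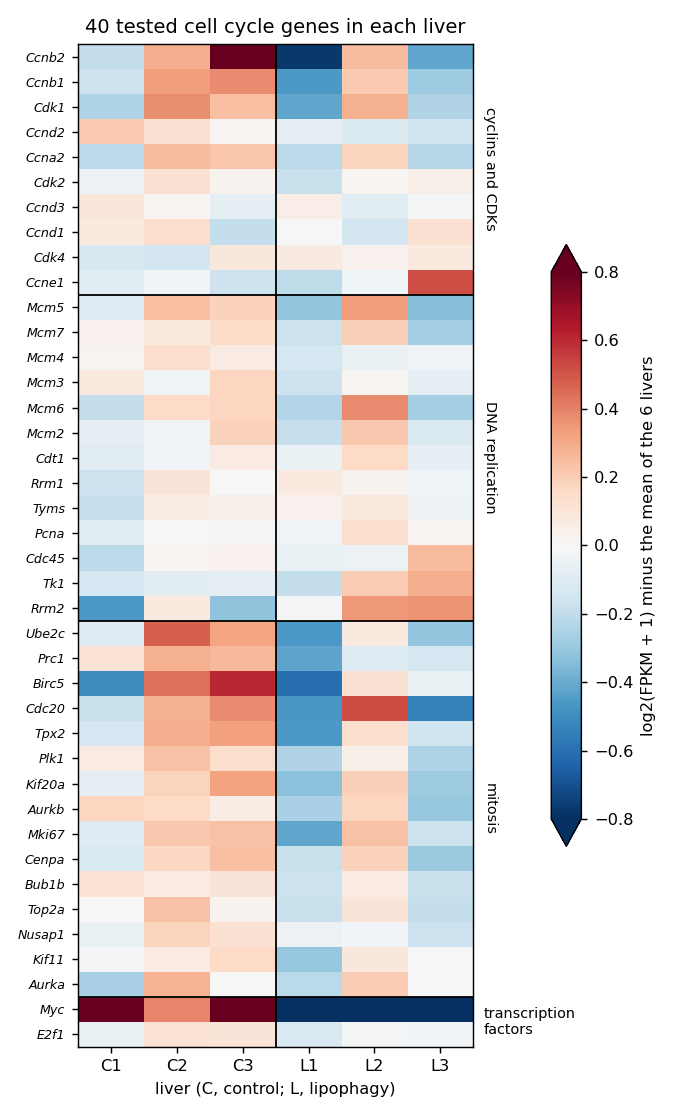
Deviation of each of the 40 tested genes in log2(FPKM + 1) from its mean over the 6 livers, with genes in rows by group and livers in columns (C, control; L, lipophagy). Colours end at 0.8 on either side, which Myc exceeds; in the mitosis rows control livers 2 and 3 and lipophagy liver 2 are mostly red, and lipophagy livers 1 and 3 mostly blue.

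The number of members with a low p depended on which livers were in the fit. Members lower at an unadjusted p under 0.05 numbered 5 with all livers and 18 without lipophagy liver 2, which is 45% of the tested members where 7.39% of all tested genes were lower at that threshold. Without control liver 1 they numbered 9 (22.5%, beside 7.87% of all tested genes). Leaving out control liver 2 or 3 gave 2 (5%, beside 5.79%) and 3 (7.5%, beside 5.24%). Leaving out lipophagy liver 1 or 3 gave 3 (7.5%, beside 5.78%) and 2 (5%, beside 8.2%), so that in these last 4 fits the share of members lay near that of all genes. The median difference of the mitosis genes was -0.41 without lipophagy liver 2 and -0.17 without lipophagy liver 1, and it was negative with any 1 liver left out. That of the replication genes turned to -0.027 without control liver 1 and to -0.044 without lipophagy liver 2. The median of the cyclins and CDKs was -0.064 without control liver 2 and -0.078 without lipophagy liver 1. Under quantile normalization the balance of all tested genes moved from 916 lower and 1327 higher to 901 lower and 744 higher. Of the 40 tested members, 3 were then lower at that threshold, beside 7.84% of all tested genes.

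Markers of bile duct cells varied over the livers in nearly the same order as the mitosis genes. Their summed level over 7 of 7 genes was 137, 240 and 248 FPKM in control livers against 92.4, 197 and 102 FPKM in lipophagy livers. Lipophagy livers 1 and 3 were the lowest, followed by control liver 1, lipophagy liver 2 and control livers 2 and 3. Spp1, which other cells also make, was 94.8% of the sum, and without it control livers 2 and 3 and lipophagy liver 2 were still the 3 highest. The duct keratin Krt19, at 1.91, 4.16 and 4.05 FPKM against 1.43, 3.36 and 1.37 FPKM, and the surface protein Epcam, at 2.17, 4.98 and 4.29 FPKM against 1.92, 3.75 and 1.31 FPKM, had the same 3 livers at the top. Cftr, the chloride channel of the ducts and the least abundant of the 7, did not follow this order. It was at 0.0960, 0.115 and 0.0898 FPKM against 0.0676, 0.0491 and 0.0519 FPKM, with lipophagy liver 2 the lowest of all 6 and no overlap between the groups. The part of bile duct cells in the levels of the cell cycle genes was not tested.

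**Figure D5:**
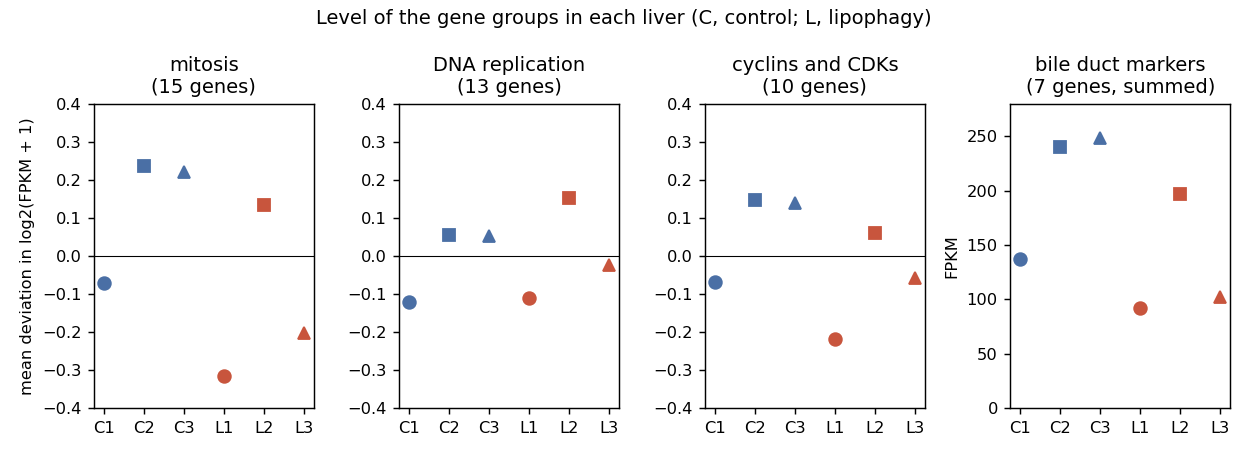
Mean deviation in log2(FPKM + 1) of the mitosis, replication and cyclin and CDK genes, and summed FPKM of 7 bile duct markers, in each liver (C, control, blue; L, lipophagy, red; 1 point per liver). In the mitosis genes and in the bile duct markers control livers 2 and 3 and lipophagy liver 2 are high, and lipophagy livers 1 and 3 are low.

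Markers of the other cell types were summed in the same way. The summed macrophage markers (10 of 11 found) ranged from 736 to 938 FPKM in control and from 709 to 866 FPKM in lipophagy livers, and Lyz2 was 48.5% of the sum. Control liver 1 and lipophagy livers 1 and 3 were the 3 lowest in this sum, but without Lyz2 the 3 lowest were the lipophagy livers. Stellate cell markers (10 of 10) were at 167 to 182 against 133 to 163 FPKM, without overlap. Lipophagy liver 2 was the lowest in this sum, of which Dcn was 73.1%, and the highest lipophagy liver without Dcn, at 48.6, 52.9 and 52.4 FPKM against 32.7, 38.1 and 36.5 FPKM. T and NK cell markers (9 of 10) were at 5.53 to 7.85 against 5.26 to 6.26 FPKM, and B and plasma cell markers (7 of 8) at 3.35 to 5.18 against 2.87 to 4.5 FPKM. Without Cd79b, 37.8% of the B and plasma cell sum, the groups did not overlap, at 2.59 to 2.79 in control against 1.94 to 2.5 FPKM in lipophagy livers. The T and NK cell groups overlapped with and without Nkg7, their most abundant marker. Neutrophil markers (6 of 7) were at 18.9 to 32.5 against 16.5 to 19.3 FPKM, and endothelial markers (9 of 9) at 26.3 to 32.7 against 30.0 to 46.9 FPKM. Without S100a8, 49.6% of the neutrophil sum, the groups did not overlap, at 10.8 to 17.8 against 8.08 to 9.13 FPKM. Without Clec4g, 60.8% of the endothelial sum, the groups overlapped more widely, at 11.7 to 14.5 against 10.7 to 14.6 FPKM. Hepatocyte markers (10 of 10) were at 73306 to 81262 against 87800 to 114656 FPKM, without overlap and by far the highest sums. Erythroid markers (7 of 8) set lipophagy liver 2 apart, at 483 FPKM against 109 to 169 FPKM in the other livers. No marker found in the table was at 0 in all 6 livers. The part of these cells in the levels of the cell cycle genes was not tested.

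Genes around the members in the pathway were read from lists written with results of these data known, and none of their genes passed an adjusted p of 0.05. Among 6 tested of 8 CDK inhibitors the median difference was -0.083, and 1 was lower at an unadjusted p under 0.05 (16.7%, beside 7.97% of all tested genes). Cdkn1a, the p53-responsive inhibitor of cyclin-CDK complexes, was at 16.2, 18.6 and 14 FPKM in control livers against 10.6, 7.90 and 10.9 FPKM in lipophagy livers. All its lipophagy values were below all its control values, and the difference was -0.68 (SE 0.14, limma adjusted p = 0.124). The largest positive difference of that list was that of Cdkn2c, at 0.0064.

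Other mitosis genes, 33 tested of 48, had a median of -0.15, with 26 lower and 7 higher. At an unadjusted p under 0.05, 6 were lower, which is 18.2% beside 7.97% of all tested genes, and 2 were higher, which is 6.06% beside 11.5%. The most negative difference was that of Ckap2, which stabilizes spindle microtubules, at -0.55 (SE 0.14). It measured 1.61, 1.83 and 1.75 FPKM against 0.565, 1.33 and 0.788 FPKM. The most positive was that of Cks1b, a small subunit of CDK complexes, at 0.76 (SE 0.12, limma adjusted p = 0.0915), with 7.63, 9.95 and 7.37 FPKM against 15.3, 13.5 and 15.2 FPKM and no overlap.

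Other replication genes, 38 tested of 44, had a median of 0.033, with 16 lower and 22 higher. At an unadjusted p under 0.05, 5 were higher, which is 13.2% and near the 11.5% of all tested genes, and 0 were lower, beside 7.97%. Pold2, a subunit of DNA polymerase delta, had the most positive difference at 0.60 (SE 0.12, limma adjusted p = 0.124), with 6.11, 5.85 and 5.48 FPKM against 11.4, 8.55 and 8.20 FPKM. The groups did not overlap. Lig1, the ligase that joins the fragments of the lagging strand, had the most negative at -0.24 (SE 0.11), with overlapping groups.

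Among other E2F, RB and MuvB genes, 16 tested of 17, the median was 0.028, and 1 was higher at an unadjusted p under 0.05 (6.25%, beside 11.5% of all tested genes). The extremes were E2f8, a repressive E2F, at -0.20 (SE 0.13), and the histone-binding subunit Rbbp4 at 0.31 (SE 0.08). Other cyclins and their kinases, 11 tested of 11, had a median of -0.026, from -0.17 for Ccng1 to 0.18 for Mnat1, and 1 was higher at that threshold (9.09%). Growth factors and receptors of hepatocyte proliferation, 6 tested of 11, had a median of -0.19. At that threshold 2 were lower (33.3%, beside 7.97% of all tested genes) and 1 was higher (16.7%, beside 11.5%). Tgfa, a ligand of the epidermal growth factor receptor, was at 3.95, 3.89 and 3.11 FPKM against 2.69, 2.90 and 3.16 FPKM. The receptor itself, Egfr, was at 78.7, 80.1 and 80.7 FPKM against 82.6, 106 and 107 FPKM. The ligand overlapped between the groups and the receptor did not, with differences of -0.24 (SE 0.10) and 0.29 (SE 0.11).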

How the data were processed

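Total RNA of liver was made into stranded mRNA libraries and sequenced in paired-end mode (100 bp), on an instrument that the labels and the methods name differently. The authors deposited 1 FPKM value per symbol and liver, and the submitters' processing notes list TopHat2 2.0.13, Bowtie2 2.2.3, SAMtools 0.1.19, Cufflinks 2.2.1 and mm10. The annotation and the strand setting are not given in the sources used here. Of the symbols, 27 had been turned into dates, none of them a member. Because FPKM are normalized, count models were left aside. Groups came from the labels.

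From the FPKM, log2(FPKM + 1) was computed, and genes whose mean reached 0.5 FPKM were fitted with limma 3.58.1 in R 4.3.3 (intensity trend, no covariates, two-sided) with Benjamini-Hochberg adjustment over all tested genes, after a test on simulated data. Members under the filter were compared by an exact permutation test (two-sided). The labels do not say that each liver is a separate mouse. All members are named, and in each other list of the pathway the tested genes with the most positive and most negative difference, and Cdkn1a. Krt19, Epcam, Spp1, Cftr, Lyz2, Dcn, Cd79b, Nkg7, S100a8 and Clec4g were named after their values were seen. The members and lists were chosen with earlier results of these data known. Depth was estimated from low genes with 1 annotated transcript, whose FPKM lie on whole multiples of 1 fragment (72.6% to 77.9% of 263 to 322 genes within 5% of 1 fragment). Fragment numbers rest on the longest GENCODE M21 transcript and cover counting error only. Coordinates are from GENCODE M21 (GRCm38). Alternatives were another pseudocount, filter, scaling or variance model, a replicate block and each liver left out. Python 3.11.15, pandas 2.3.3, numpy 2.4.6, scipy 1.17.1 and matplotlib 3.10.9 were used.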

Additional observations from a re-analysis of the deposited data

How the results depend on the processing

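With 3 livers per group, a difference smaller than the spread between livers was not detectable, and the members under the filter rest on few fragments in some livers. The number of tested genes past an adjusted p of 0.05 was 3 in the analysis as reported, 1 without a filter and 43 with the replicate number as a block, and it ranged from 1 to 11 over the fits that left out 1 liver each. Of the members, 0 passed as reported, 1 (Myc, adjusted p = 0.0252, limma with Benjamini-Hochberg adjustment) passed with the replicate block, and 0 to 1 did with 1 liver left out. Deviations of same-numbered livers from their group means correlated at 0.25, 0.23 and -0.057 over genes, and those of differently numbered livers at -0.39 to 0.25. The numbers were therefore not taken to pair the livers, and whether they do was not settled. Members lower at an unadjusted p under 0.05 numbered 5 as reported (12.5%, beside 7.97% of all tested genes). They numbered 3 with a filter at a mean of 1 FPKM (beside 7.39%) and 3 of 40 under quantile normalization (beside 7.84%). With the replicate block they numbered 10 of 40 (beside 7.93%), and with 1 liver left out 2 to 18 (5% to 45%, beside 5.24% to 8.2%). Members higher at that threshold numbered 1 as reported (2.5%, beside 11.5% of all tested genes) and 0 to 2 with 1 liver left out (beside 6.96% to 14%). The median difference of all tested members stayed negative in every fit, from -0.25 to -0.10. The median of the tested transcription factors was -1.11 as reported, -1.38 with a pseudocount of 0.1, and -0.15 without a filter or with one at 0.1 FPKM, where all 4 entered. Members near 0 turned sign. Under quantile normalization the differences of Mcm2, Pcna and Aurka were 0.024, -0.058 and 0.054. With 1 liver left out, differences ranged from -0.18 to 0.022 for Mcm2, from -0.14 to 0.13 for Aurka, from -0.11 to 0.054 for Ccnd1, from -0.070 to 0.018 for Ccnd3, from -0.044 to 0.069 for Cdt1, from -0.027 to 0.11 for Rrm1, from -0.026 to 0.096 for Tyms, from -0.30 to 0.028 for Mcm6 and from -0.023 to 0.33 for Ccne1. The cause was not tested. No other member turned sign in any of these fits.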
